A study of Drosophila melanogaster with 2 samples.

Results

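The dorsoventral patterning genes described here are the 9 genes dl, twi, sna, sog, brk, zen, dpp, ush and pnr. They were listed by symbol for their known roles, in a choice made with earlier results of these data known. All 9 were found among the 13968 protein-coding genes annotated on 7 chromosomes of the fly genome. For each gene, every peak that overlapped the gene body or the 10 kb either side of it, called the gene's window, was taken from each deposited peak list. The peaks mark chromatin bound by CG1024-eGFP, the product of the fly gene CG1024 joined to an enhanced green fluorescent tag. Whole Drosophila melanogaster embryos that carry this insertion were taken at 0 to 24 hours, and anti-GFP chromatin immunoprecipitation was followed by sequencing (ChIP-seq). Both biological replicates (n = 2) belong to 1 group without a second strain, treatment or time, so no conditions are compared. Which promoter drives the fusion and how many embryos were pooled are not given in the labels.

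The dorsoventral axis of the fly embryo is set by Dorsal, a maternal transcription factor of the NF-kappa-B family that enters nuclei on the ventral side. High nuclear Dorsal switches on twi and sna in the presumptive mesoderm, lower levels switch on sog and brk in the neurogenic ectoderm, and Dorsal represses zen and dpp, which are left on dorsally. There the ligand Dpp, a bone morphogenetic protein, directs dorsal ectoderm and amnioserosa through targets that include ush and pnr. These events begin in the early embryo, while the chromatin came from whole embryos of all embryonic ages, so the stage and the cells behind a peak cannot be told apart.

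The authors deposited a conservative set of 3401 peaks and another set of 3992 peaks for both replicates together, and thresholded sets of 2599 peaks for replicate 1 and 2291 for replicate 2. Behind each stands a ranked list of 82795 to 142386 peaks with an irreproducible discovery rate (IDR). The global IDR used here estimates the share of irreproducible peaks among those that are at least as reproducible as the peak in question. In the lists of a single replicate it does not measure agreement between the replicates, since those lists were called from that replicate's own alignments. All thresholded peaks had a global IDR of 0.01 or below. The signal of a peak is a value given by the authors' caller without a stated scale, so levels are read within a list only. Depth is unknown, as read counts are not in these lists.

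Sequences of 121 bases centred on a peak summit, the position the authors' caller marked within a peak, are printed for the peaks the account turns on. They are the plus strand of genome build dm6, 5′ to 3′, with matches to the searched motifs in capitals, and those overlapping an annotated untranslated region were left out. The strongest peaks of 5 of the windows, with a further strong peak of sog and of ush, are shown because both replicates called each of them. The twi peak was also called by both replicates, and its sequence is not printed.
Dif intron, window of dl, chr2L:17430121-17430241: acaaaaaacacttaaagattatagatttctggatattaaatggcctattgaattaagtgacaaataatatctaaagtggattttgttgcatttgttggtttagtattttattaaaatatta
sog intron, stronger peak, chrX:15622981-15623101: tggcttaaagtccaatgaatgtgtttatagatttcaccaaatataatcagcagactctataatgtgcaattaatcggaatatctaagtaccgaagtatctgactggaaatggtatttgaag
sog intron, second peak, chrX:15619437-15619557: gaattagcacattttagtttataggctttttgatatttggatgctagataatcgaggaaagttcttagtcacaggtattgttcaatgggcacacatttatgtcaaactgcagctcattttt
dpp intron, chr2L:2433568-2433688: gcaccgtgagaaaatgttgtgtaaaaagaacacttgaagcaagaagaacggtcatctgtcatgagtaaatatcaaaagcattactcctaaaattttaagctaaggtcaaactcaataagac
upstream of bcd, window of zen, chr3R:6759529-6759649: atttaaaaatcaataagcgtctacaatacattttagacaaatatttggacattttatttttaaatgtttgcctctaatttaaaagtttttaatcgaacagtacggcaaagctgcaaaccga
ush intron, before its downstream promoters, chr2L:520748-520868: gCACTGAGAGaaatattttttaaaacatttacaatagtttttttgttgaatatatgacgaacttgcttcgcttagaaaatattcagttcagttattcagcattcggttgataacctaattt
ush intron, narrow peak, chr2L:485810-485930: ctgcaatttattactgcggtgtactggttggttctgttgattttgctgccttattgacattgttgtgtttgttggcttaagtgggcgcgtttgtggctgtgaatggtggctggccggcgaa
The brk promoter peak is shown for its match to a longer form of the Dorsal-like motif GGGNNNNCC, which has a further N between GGG and CC, and a further ush peak for its match to CAGGTG, a Snail-like E-box.
brk promoter, chrX:7307429-7307549: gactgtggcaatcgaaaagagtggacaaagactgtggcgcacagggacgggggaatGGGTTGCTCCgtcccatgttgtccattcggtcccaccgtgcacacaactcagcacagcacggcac
ush intron, nearest its downstream promoters, chr2L:522042-522162: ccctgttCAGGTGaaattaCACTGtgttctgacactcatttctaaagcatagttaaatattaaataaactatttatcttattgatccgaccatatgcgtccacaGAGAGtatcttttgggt

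Peaks of CG1024-eGFP lay in the windows of 7 of the 9 genes in the conservative set (77.8%, 95% Wilson interval 45.3 to 93.7), and in those of 52.7% of all protein-coding genes. Among the 9624 genes with bodies within the length range of those of the 9, the share was 57.6%. The 7 genes were dl, twi, sog, brk, zen, dpp and ush, and sna and pnr had none. The windows held 21 peaks in 404 kb, of which 7 were at ush and 5 at sog, so these 2 genes held 57.1% of them. Brk had 3 peaks, zen and dpp had 2 each, and dl and twi had 1 each. The share of protein-coding genes with at least as many peaks was 0.215% for the count of ush, 1.52% for that of sog and 9.87% for that of brk. For the counts of zen and dpp it was 25%, and for those of dl and twi it was the 52.7% given above. A longer window can hold more peaks, and the window of ush was 84341 bp long and that of sog 50152 bp. Per 100 kb of window the order was different, with 12.9 peaks for brk, 9.97 for sog, 9.38 for zen and 8.30 for ush.

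**Figure D1:**
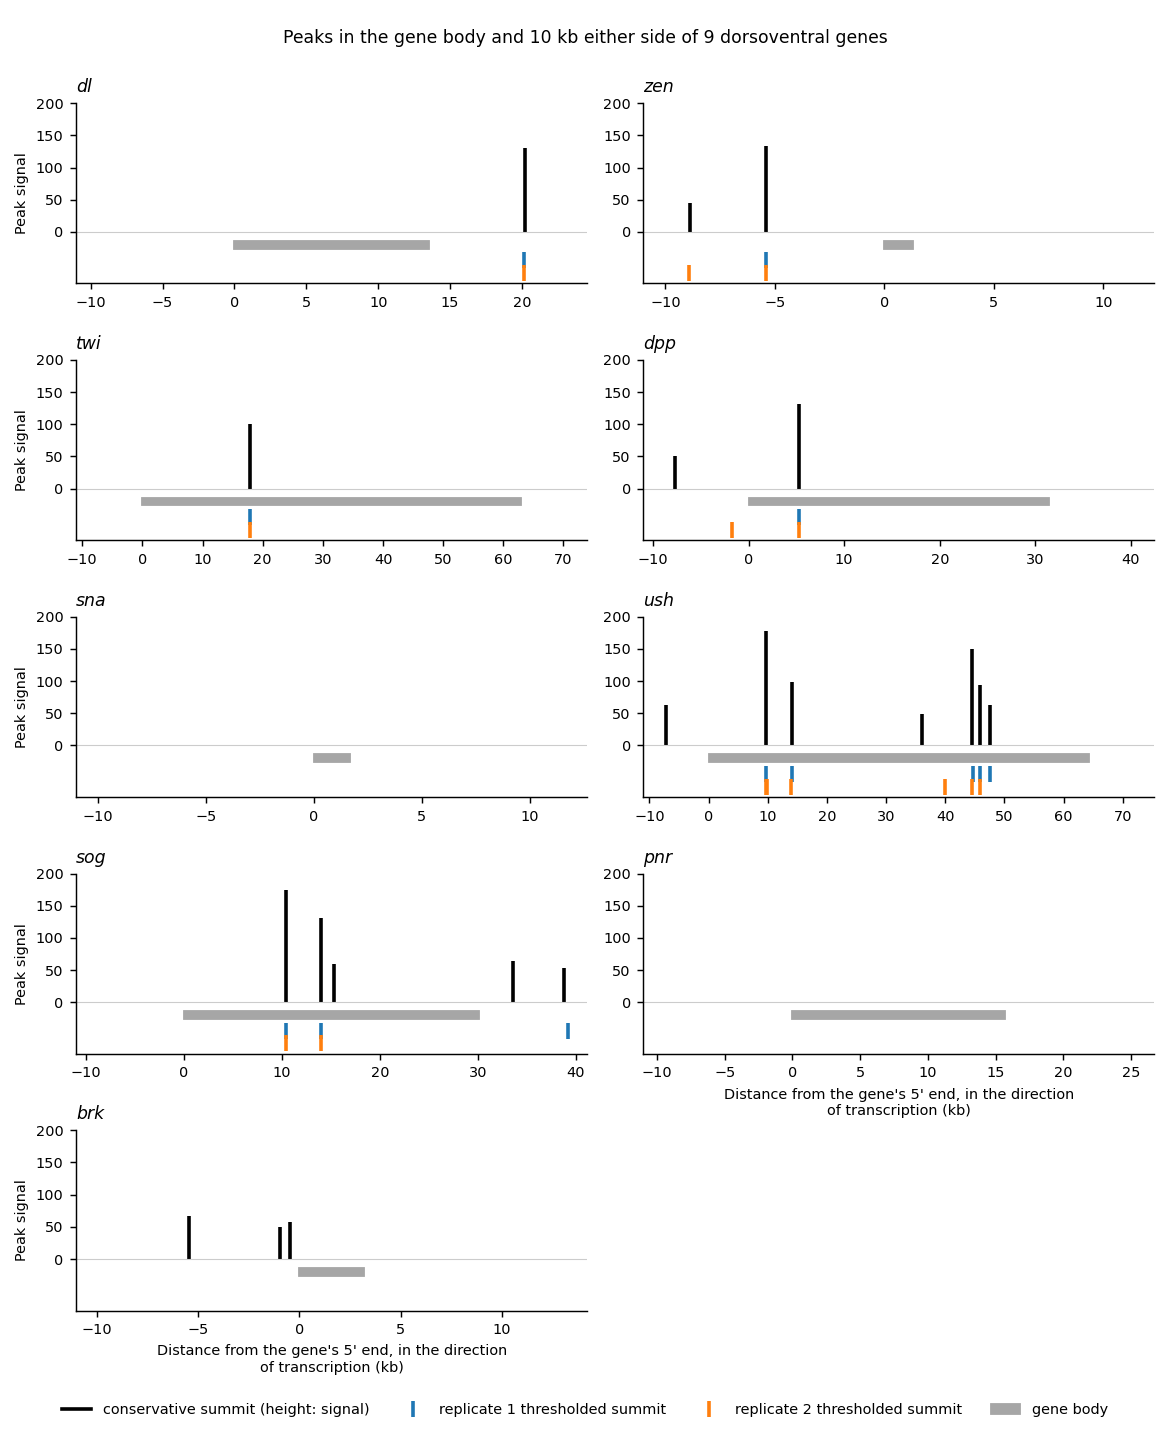
Peaks in the windows of the 9 genes, drawn by distance from the gene's 5′ end in the direction of transcription (kb). Black lines give the signal of conservative summits (authors' value, vertical axis), blue and orange ticks the thresholded summits of replicates 1 and 2, and grey bars the gene bodies; ush and sog hold 12 of the 21 conservative peaks, and sna and pnr none.

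Fewer of the genes had a peak in their own transcribed region or at their own promoter. A conservative summit lay inside the gene body of 4 of the 9 genes (44.4%, 18.9 to 73.3), which were twi, sog, dpp and ush, against 9.39% of all protein-coding genes. A longer gene body can hold more summits, and this background was not limited to the length range of the 9. No background here was matched for length gene by gene. A summit lay within 500 bp of a transcription start site (TSS) of the gene itself, called a promoter summit, at 2 of the 9 (22.2%, 6.32 to 54.7), ush and brk, against 14.1%. With the smaller replicate lists, replicate 1 had thresholded peaks in 6 of the 9 windows against 44.4% of all genes, and a promoter summit at 1 gene, ush, against 11.4%. Replicate 2 had peaks in 6 windows against 41.3%, and a promoter summit at 0 of the 9 genes against 10.5%. In the other series-level set, 7 windows held 21 peaks against 57.2% of all genes with a peak, and ush and brk again had a promoter summit against 16.2%.

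Dl, which encodes Dorsal, had no peak in its gene body in any thresholded list. The 1 conservative peak of its window, with a summit at chr2L:17430181 and a signal of 130.16, lay 6510 bp beyond the 3′ end of dl. It was inside Dif, the neighbouring gene for a Dorsal-related factor of the immune response, 475 bp downstream of the TSS of the non-coding RNA gene lncRNA:CR44409. Both replicates called it, replicate 1 at 37.04 and replicate 2 at 95.56. Its rank was 2401 of 2599 thresholded peaks in replicate 1 and 549 of 2291 in replicate 2, so it stood near the bottom of the replicate 1 list and in the upper part of the replicate 2 list. The other series-level set added a weaker peak, 176 bp downstream of a Dif TSS, with a signal of 68.70.

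Twi encodes a basic helix-loop-helix activator of the mesoderm. Its 1 conservative peak, with a summit at chr2R:23003286, lay in an intron of the gene as annotated. The summit was 17912 bp downstream of the most distal TSS and 42822 bp upstream of the next one. Its signal was 99.77 in the conservative set, 48.83 in replicate 1 and 53.89 in replicate 2, and all 4 thresholded lists held it. The nearest TSS belonged to CG9896, 4402 bp away. No thresholded list had a summit at a twi promoter.

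Sna encodes a zinc finger repressor that keeps neurectoderm genes off in the mesoderm, and its window held no thresholded peak in any list. The ranked lists held 28 peaks there for both replicates together, 16 in replicate 1 and 20 in replicate 2. None had a global IDR of 0.05 or below. The strongest had a signal of 38.80 at an IDR of 0.223 in the ranked list behind the conservative set, 23.02 at 0.696 in replicate 1 and 24.22 at 0.421 in replicate 2. The nearest conservative peak, with a signal of 59.64, began 19653 bp outside the gene, 1074 bp upstream of lace. Ranked peaks were thus present around sna, all of them far from the level at which the authors kept a peak.

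Sog encodes an extracellular protein that binds Dpp and limits its activity laterally. Its window held 5 conservative peaks, 3 in introns of sog and 2 downstream of the gene on the side of Chsy. The strongest had a summit at chrX:15623041, 3499 bp downstream of the nearest sog TSS, with a signal of 174.61 in the conservative set, 71.00 in replicate 1 and 98.31 in replicate 2. The second, at chrX:15619497, had 130.40, 56.34 and 61.52 in the same lists. These 2 intron peaks were thresholded in both replicates. They were 120 and 97 bp wide, against 280 bp for most conservative peaks. The other 3, with signals of 52.70, 60.21 and 63.79, overlapped no thresholded peak of either replicate. Of the replicates, only replicate 1 held a further downstream peak, with a signal of 42.21 and a summit 675 bp upstream of a Chsy TSS. The other series-level set had a peak with a summit 690 bp from that TSS and a signal of 56.38, and lacked the conservative peak with a signal of 52.70.

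Brk encodes a repressor of Dpp target genes that is held on in the ventrolateral ectoderm. All 3 conservative peaks of its window lay upstream of it, at 450, 930 and 5425 bp from the TSS, with signals of 57.65, 49.30 and 67.10. Each also lay inside CG1677 and lncRNA:CR44357, which overlap the region. None was thresholded in either replicate. At the promoter summit the overlapping ranked peak had a signal of 29.01 and a global IDR of 0.0311 in replicate 1, and a signal of 39.02 in replicate 2 with an IDR just above 0.01. The brk peaks were thus called from both replicates together and in neither alone.

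Zen encodes a homeodomain protein that specifies the amnioserosa. Its window held 2 conservative peaks, both upstream and both nearer to another gene. The stronger, at chr3R:6759589, lay 5395 bp upstream of zen and 123 bp upstream of bcd, the gene for the anterior determinant Bicoid. It had a signal of 133.40 in the conservative set, 77.24 in replicate 1 and 56.67 in replicate 2, and all 4 thresholded lists held it. The weaker, inside Ama and 339 bp upstream of another of its TSSs, had a signal of 44.30 in the conservative set and was thresholded in replicate 2 alone, at 38.61. No thresholded list had a summit inside zen or at its promoter.

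Dpp encodes the ligand of the dorsal side. The stronger of its 2 conservative peaks, with a summit at chr2L:2433628, lay in an intron 5256 bp downstream of the most distal dpp TSS and 16565 bp upstream of the next. Its signal was 131.02 in the conservative set, 74.91 in replicate 1 and 59.46 in replicate 2, and all 4 thresholded lists held it. The weaker, with a signal of 50.52, was 134 bp upstream of CG9886 and was thresholded in neither replicate. Replicate 2 also called a peak 1710 bp upstream of dpp with a signal of 56.95. The other series-level set held this upstream peak at 77.00, while the conservative set and replicate 1 did not.

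Ush encodes a zinc finger cofactor that binds the GATA factor Pannier, the product of pnr. Its window held 7 conservative peaks, 6 of them with a summit inside the gene, which spans 64341 bp and has 4 annotated TSSs. A group of 3 lay at the downstream pair of TSSs, with signals of 150.51, 93.18 and 63.30 at 2658 bp upstream, 1364 bp upstream and 36 bp downstream of the nearest. The strongest of the 7, at chr2L:485870, had 177.86 in the conservative set, 137.42 in replicate 1 and 37.49 in replicate 2, and was 71 bp wide. A summit in the 5′ UTR, 586 bp upstream of an internal TSS, had 98.26. The remaining signals were 62.37, inside CG4297, and 48.45, in an intron.

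Of the 7 ush peaks, 4 were thresholded in both replicates, 1 in replicate 1 alone and 2 in neither. The peak at chr2L:520808, before the downstream TSSs, had signals of 84.28 in replicate 1 and 65.23 in replicate 2. The summit 36 bp from the TSS had 43.50 in replicate 1 and overlapped no ranked peak of replicate 2. Replicate 2 also called an intron peak of 45.12 and a weak peak of 10.63 beside the narrow one, which replicate 1 did not. The other series-level set also held 7 peaks, of which 5 were those of the conservative set and 2, at 57.40 and 56.54, were not in it.

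Pnr, which encodes that GATA factor, had no thresholded peak in any list. The ranked lists held 47 peaks in its window for both replicates together, 39 in replicate 1 and 43 in replicate 2. The lowest global IDR was 0.135 in the ranked list behind the conservative set, 0.0876 in replicate 1 and 0.0642 in replicate 2. The strongest ranked signal of both replicates together was 47.81. That is more than the 44.30 of the Ama peak in the zen window, which the conservative set held, but its IDR was 0.318. The nearest conservative peak began 30536 bp outside the gene, at the Mhcl promoter.

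**Figure D2:**
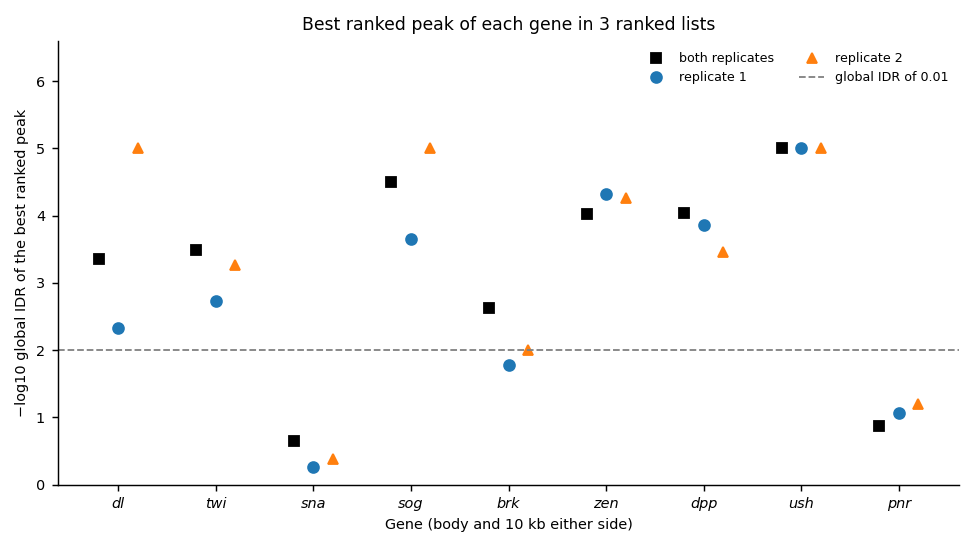
Lowest global IDR among all ranked peaks in each gene's window, as −log10 (vertical axis, higher is more reproducible), for both replicates together (squares), replicate 1 (circles) and replicate 2 (triangles). The value of a single replicate does not measure agreement between the replicates. Points above the dashed line pass a global IDR of 0.01; sna and pnr lie below it in all 3 lists and brk in both replicates.

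The signals in the 7 windows fell into 2 groups on either side of the middle of the conservative set. The 21 peaks ranged between 44.3 and 177.86 with a median of 67.1, and the whole set had a median of 90.9. Of the 21, 10 were above that median, 10 were below the first quartile of the set, 66.9, and 1 lay between them. The 14 peaks inside one of the genes, or with its TSS as the nearest, had a median of 95.7. The 7 nearer to another gene had 62.4. Without ush the windows held 14 peaks, or 4.37 per 100 kb, and with it 5.19 per 100 kb. All protein-coding gene windows together held 3.49 per 100 kb. These windows overlap, so a peak can be counted in several of them. Over the 7 chromosomes, with each peak counted once, the value was 2.47. Without ush and sog the value for the other windows came to 3.34, close to that of all gene windows.

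**Figure D3:**
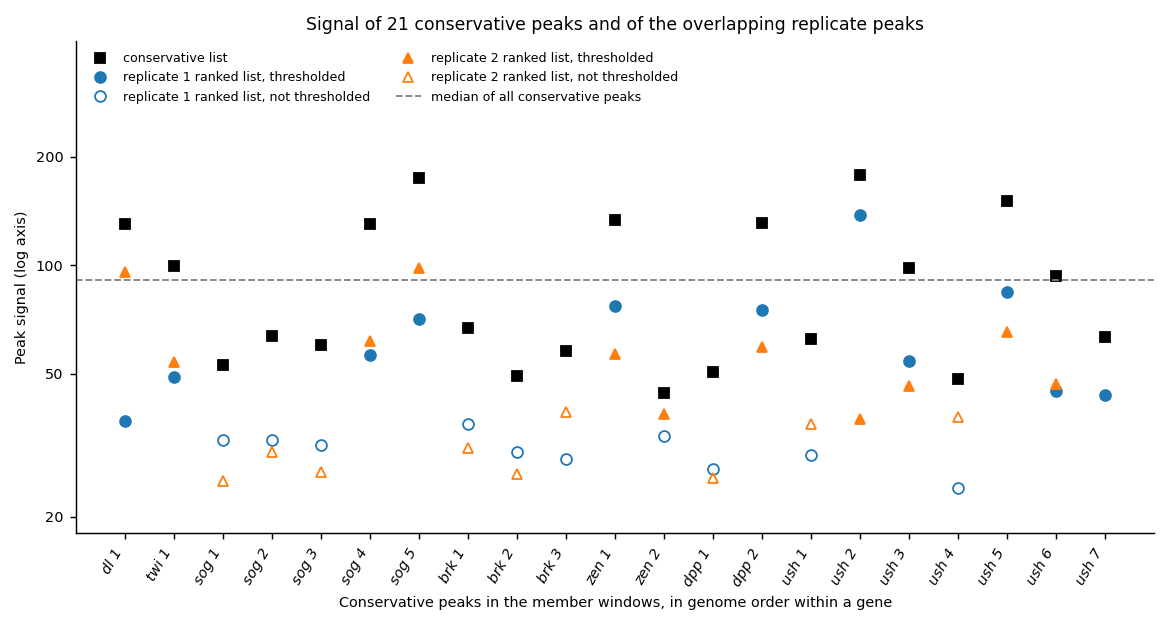
Signal (log axis) of the 21 conservative peaks, in genome order within each gene, with the signals of the overlapping ranked peaks of replicate 1 (circles) and replicate 2 (triangles); filled symbols were thresholded in that replicate. The dashed line is the median of all conservative peaks, 90.9, which 10 of the 21 exceed.

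Each replicate alone called fewer of these peaks. Of the 21, 10 (47.6%) overlapped thresholded peaks of both replicates, 1 of replicate 1 alone, 1 of replicate 2 alone and 9 (42.9%) of neither. Over all conservative peaks the shares were 48.6% in both and 24.0% in neither. The 10 peaks called in both were 4 at ush, 2 at sog and 1 each in the windows of dl, twi, zen and dpp. The 9 called in neither were all 3 brk peaks, 3 of the 5 sog peaks, 2 at ush and the weaker peak of the dpp window. By position, 12 of the 21 summits were in introns (57.1%) and 6 within 500 bp of a TSS of any gene (28.6%), against 32.0% and 48.8% of all conservative summits. No test was made of these differences, since the genes were chosen with results of these data known.

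**Figure D4:**
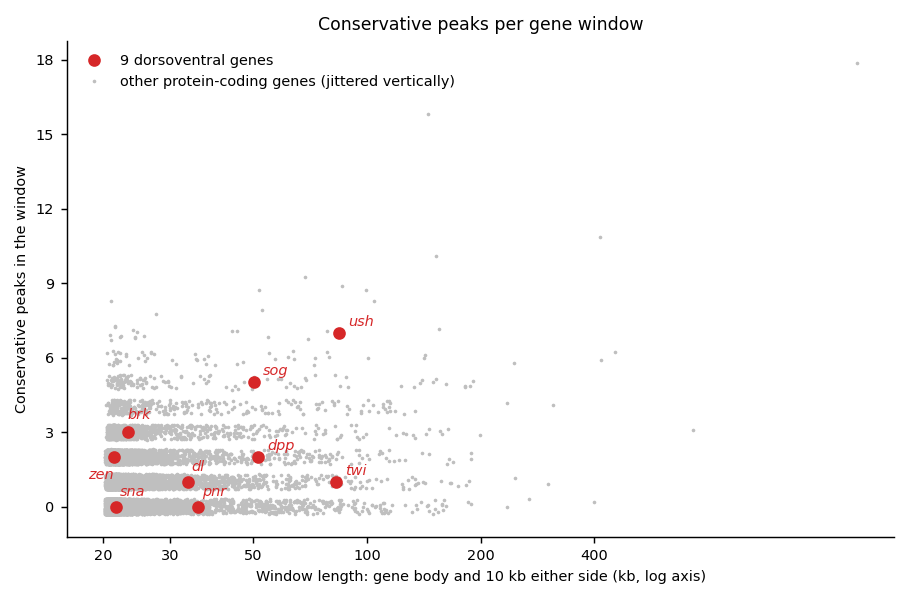
Conservative peaks per window (vertical axis) against window length (kb, log axis) for the 9 genes (red, named) and all other protein-coding genes (grey, jittered vertically). The 9 genes lie between 0 and 7 peaks, with ush at 7 and sog at 5; windows of the 9 have a median length of 35.7 kb and all windows 22.2 kb.

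The strongest peak of any window was in a ranked list and not in the conservative set. At chr2L:481091, in an intron 4871 bp downstream of the most distal ush TSS and 1403 bp from the TSS of cbt, a peak had a signal of 949.22 and rank 38 of 133694. Its signal was 488.66 in replicate 1, at rank 24 of 82795, and 503.02 in replicate 2, at rank 40 of 108744. Its global IDR was 1e-05 in all 3 lists. The gene cbt encodes Cabut, a transcription factor with a known role in dorsal closure, and lies within ush on the opposite strand. The sequence of this peak and of a neighbour are shown because the peaks passed the IDR level of the thresholded sets but were not in them.
ush intron, strongest left-out peak, chr2L:481031-481151: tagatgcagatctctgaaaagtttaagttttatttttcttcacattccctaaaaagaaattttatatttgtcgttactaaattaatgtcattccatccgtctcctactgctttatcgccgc
beside the cbt promoter, left-out peak, chr2L:480020-480140: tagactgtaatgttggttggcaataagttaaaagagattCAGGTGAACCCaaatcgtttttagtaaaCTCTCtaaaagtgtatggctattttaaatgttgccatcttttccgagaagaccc
Of the 101 ranked peaks that met a global IDR of 0.01 and were absent from the conservative set, 6 lay in the ush window, within 9729 bp, and no other of the 9 windows held any. The 949.22 was the highest signal of the 101. The 9729 bp held no conservative peak. The same stretch lacked thresholded peaks in both replicates, with 6 such left-out peaks in the ush window in replicate 1 and 5 in replicate 2. The step that left them out is not given in the sources used here, and the counts above do not include them. With them, the ush window would hold 13 peaks at that level.

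**Figure D5:**
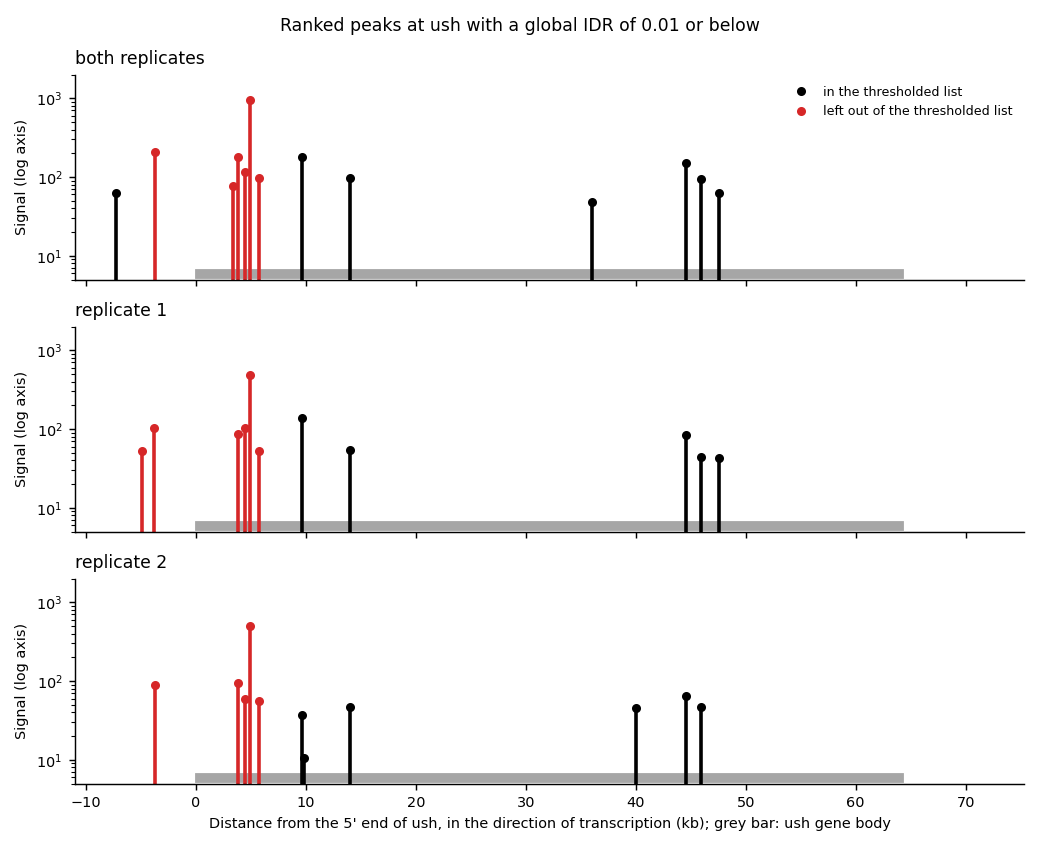
Signal (log axis) of all ranked peaks at ush with a global IDR of 0.01 or below, for both replicates together, replicate 1 and replicate 2, by distance from the 5′ end of ush (kb). Red peaks were left out of the thresholded sets and black ones kept; the red peak at 949.22 in the top panel is the highest.

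Motif matches were searched on both strands within 100 bp of each summit. GGGNNNNCC matched at 2 of the 21 summits (9.52%) against 9.21% of all conservative summits, and its longer form, which can overlap it, at 3 (14.3%) against 9.33%. At brk the letters GGGTTGCTCC lay across the summit 450 bp from the TSS. CAGGTG matched at 2 summits (9.52%) against 5.42%, in the windows of twi and ush. CACATG, a Twist-like E-box, matched at 1 against 8.21%.

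The Zelda motif CAGGTAG, the Mad-like GCCGNCGC, the E-box CAGCTG and TATCGATA, known from Dref and BEAF-32, matched at 0 of the 21. Their shares over all conservative summits were 0.736%, 1.5%, 9.10% and 4.27%. The Brinker-like GGCGCC matched at 2 summits (9.52%) against 3.71%, and GGCGCT at 3 (14.3%) against 6.15%. GAGAG, bound by GAGA factor, matched at 4 (19%) against 23.7%, and CACTG at 11 (52.4%) against 51.8%. Promoters for this search were taken as 250 bases before to 50 after the gene's start, its annotated 5′ end. No separate search was made at the other TSSs of dl, twi, sog, dpp, ush and pnr, while promoter summits were counted at any TSS. GAGAG was present in the promoters of 7 of the 9 genes, all but twi and ush, against 29.7% of all genes. CACTG was present in 3 against 46.1%. GCCGNCGC was in the promoters of sna, brk and zen, 3 of the 9 against 3.15%, and CAGGTAG in that of sna, 1 of the 9 against 1.64%. GGGNNNNCC was in 3 (twi, zen and pnr) against 13.3%, and its longer form in 1 (pnr) against 12.4%. CACATG (dl, against 9.69%), CAGGTG (twi, 9.31%), GGCGCC (brk, 4.54%), GGCGCT (twi, 9.46%) and TATCGATA (pnr, 9.36%) were each in 1 promoter, and CAGCTG in 0 against 17.6%. A match is a description of letters and was not tested as a binding site.

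Other genes of the axis were counted from 4 lists in the same windows, and windows of neighbouring genes can share peaks. The maternal Toll pathway, which carries the ventral signal to Dorsal, had conservative peaks at 3 of 14 genes (21.4%) against 52.7% of all protein-coding genes, with 2 peaks each at cact, pll and wbl. Promoter summits were at 2 of the 14 (14.3%), against 14.1% of all genes. These were cact, the inhibitor that holds Dorsal in the cytoplasm, with a signal of 174.81, and pll, the kinase of the pathway, with 166.37. Both promoter peaks were thresholded in both replicates. All the other genes of this list had 0 conservative peaks.

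Further Dorsal targets of mesoderm and neurectoderm had peaks at 14 of 19 genes (73.7%) against 52.7% of all. Some of these windows are long, at 83.3 kb for NetB, 77.6 kb for ths, 69.9 kb for NetA and 65.4 kb for Mef2, against a median of 22.2 kb over all genes. The most were 7 at NetA, which encodes a netrin, 5 at Mef2, a muscle transcription factor gene, and 3 each at ths and NetB. Thresholded peaks of replicates 1 and 2 in these windows numbered 1 and 3 at NetA and 3 and 3 at Mef2. They numbered 3 and 1 at ths and 2 and 2 at NetB. Promoter summits were at 4 of the 19 (21.1%) against 14.1%. They were at tin, a homeodomain gene of the dorsal mesoderm, with a signal of 217.73, at mthl1, the receptor gene also called mist, with 166.71, at stumps, which encodes an adaptor of fibroblast growth factor receptors, with 97.13, and at Mef2, with 70.71. The tin value was above all 21 signals in the windows of the 9 genes. The promoter peaks of tin and mthl1 were thresholded in both replicates, that of stumps in replicate 2 alone and that of Mef2 in neither.

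Dpp signalling genes had peaks at 11 of 16 (68.8%) against 52.7% of all genes, with 7 at shn, which encodes a zinc finger cofactor of Mad, 4 at Dad, an inhibitory Smad gene, and 4 at emc. Thresholded peaks of replicates 1 and 2 numbered 5 and 4 at shn, 2 and 1 at Dad and 1 and 2 at emc. Mad, the transcription factor gene of the pathway, had the 1 promoter summit of the list (6.25%, against 14.1%), with a signal of 63.89. That promoter peak was thresholded in replicate 2 alone. Other dorsal ectoderm and amnioserosa genes had peaks at 7 of 13 (53.8%, against 52.7%) and promoter summits at 0 (against 14.1%), with the most, 4, in the window of the T-box gene Doc2. Over the 4 lists, 35 of 62 genes had a peak (56.5%) and 7 a promoter summit (11.3%), near the 52.7% and 14.1% of all protein-coding genes.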

How the data were processed

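The analysis used 8 deposited peak lists from 2 biological replicates, on build dm6 per the labels. Per the deposited inventories, the authors called peaks from the alignments of each replicate, and again from both, always with a control. The sources used here do not name the aligner or peak caller. The signal per peak and the −log10 of the global IDR are as the authors deposited them, and the other columns of values were not used. Depth is unknown, and Wilson intervals cover counting only.

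Positions are 1-based, and no peak ran past a chromosome end of the dm6 reference. Genes and TSSs came from Ensembl release 115, on 7 chromosomes, which leaves 3397 conservative peaks. A peak was in a window when any base overlapped, and thresholded and ranked lists were joined on position. Of 63 symbols in the 4 lists, 62 genes matched (hnt and peb are the same gene, wind is wbl and mist is mthl1). Named genes are the 9, the genes nearest to or holding their peaks, and up to 3 per list by promoter signal or peak count, with ties. Members and lists were chosen with earlier results of these data known, so no test was run. A further gene of the list is not reported here. Counting functions were checked on simulated data. Software was Python 3.11.15, pandas 2.3.3, numpy 2.4.6, matplotlib 3.10.9 and scipy 1.17.1. As alternatives, counts were repeated with each replicate alone, the other series-level set, a global IDR of 0.001, other windows and promoter widths, and other definitions of overlap.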

Additional observations from a re-analysis of the deposited data

Results flagged for a closer look

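The ranked list behind the conservative set held 6 peaks in the ush window that met a global IDR of 0.01 and were absent from the conservative set, so they lie outside all counts of the 9 genes. In genome order their signals were 205.07 at a summit 255 bp from a CG4297 TSS, 77.22 at 66 bp from the cbt TSS, 178.35 at 392 bp, 117.33 at 991 bp, 949.22 at 1403 bp and 98.08 at 2216 bp from it. Of these, 5 exceed the median of 88.5 over all 101 such peaks. In replicate 1 the overlapping left-out peaks had signals of 103.70, 86.97, 103.91, 488.66 and 52.36, with 1 more of 53.31 in CG4297. In replicate 2 they had 90.05, 94.53, 58.42, 503.02 and 55.30. The peak of 77.22 overlapped no peak of either replicate at a global IDR of 0.01 or below. Soft-masked bases made up 6.79% to 20.6% of each of the 6 peaks. The part of the missing step in these values was not tested.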

How the results depend on the processing

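Leaving out a replicate, which means using the other replicate's own thresholded list, left 12 to 14 peaks in the 9 windows in place of 21, and 0 to 1 genes with a promoter summit in place of 2. With replicate 1 left out the promoter count was 0. It was 1, ush, with promoters of 200 bp. At a global IDR of 0.001 or below, 10 peaks were left, 0 genes had a promoter summit and the median signal was 131. Genes with a window peak numbered 7 in the main count, against 52.7% of all protein-coding genes, and between 5 and 8 under the alternatives. The share of all genes moved with the count. For 5 kb either side 5 of the 9 had a peak, against 39.4% of all genes. For 20 kb it was 8, where sna gained a peak, against 69.2%, and at a global IDR of 0.001 it was 6 against 36.0%. Peak density in the windows was 2.10 times that of the 7 chromosomes, and between 1.57 and 2.64 under the alternatives. All protein-coding gene windows, in which a peak can count more than once, were also denser than the chromosomes, at 3.49 against 2.47 peaks per 100 kb. The number of peaks called in both replicates was 10 under each of 2 other definitions of overlap. Within 50 bp of the summit, GGGNNNNCC matched at 0 summits against 4.65% of all, its longer form at 1 (4.76%) against 4.42%, and GAGAG at 3 (14.3%) against 9.66%, which is above the share of all summits and not below it as within 100 bp. Counting all ranked peaks at a global IDR of 0.01, an alternative chosen after seeing the data, gave 27 peaks with a median signal of 98.1. No paired analysis was possible because there was 1 group.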
